A study of Mus musculus with 10 samples.

Results

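The replication-type histone genes were taken as every row of the deposited ATAC-seq table whose symbol begins with Hist and a number. The rule found 67 of the 21965 genes of the table: 54 in cluster Hist1, 10 in Hist2, 2 in Hist3 and 1 in Hist4. By the class in the symbol, 6 encode the linker histone H1, 18 encode H2A, 18 H2B, 12 H3 and 13 H4. ATAC-seq uses a transposase to cut open chromatin, so the signal of a gene reports how accessible its DNA is and is not a measure of its RNA. The cells were mouse embryonic fibroblasts taken from embryos at day 13.5, labelled as strain ICR; the growth notes describe embryos with a GFP transgene under the Oct4 promoter. They were infected with retroviruses and kept in embryonic stem cell medium. Each library came from about 50000 cells, and a separation of infected from uninfected cells is not described in these notes.

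Of the 10 conditions, 4 received a single factor: Sox2, Klf4, Oct4, or the mutant Oct4-L80A. The others were the trio of unmutated factors (SKO); the trio with the mutant in place of Oct4 (SKO-L80A); SKO with a short hairpin RNA against Brg1, the ATPase of a chromatin remodelling complex (SKO+shBrg1); SKO-L80A in medium that held 50 µg/ml of vitamin C (SKO-L80A+Vc); SKO-L80A with virus for Gadd45a (SKO-L80A+Ga); and a Flag control virus. Each condition had 1 library and 2 columns of values, which were treated as repeat measurements of 1 sample. No p-value can be given with 1 library per condition, so a difference was read against the values of both columns and against all genes of the table. Because the material was bulk nuclei, fewer cells with an open site and less opening per cell cannot be told apart.

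Replication-type histone genes are small genes without introns whose RNA ends in a stem-loop instead of a poly(A) tail. They are transcribed mainly in S phase, when new DNA has to be packed into nucleosomes, and the large cluster is gathered in a nuclear body around the coactivator NPAT. H2A, H2B, H3 and H4 form the nucleosome core, and H1 binds the DNA that enters and leaves it. In H2B promoters an octamer element is known as the site of the POU-domain factor Oct1, a relative of Oct4; H4 promoters are known for the factor HINFP, and H1 promoters for a CCAAT element and an upstream AAACACA box.

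Per RefSeq on GRCm38.p6, the assembly the submitters' notes call mm10, the Hist1 members lay on chromosome 13 between 21715711 and 23934913, with 47 other genes of the table between them. Hist2 lay on chromosome 3 at 96219885-96270192, Hist3 on chromosome 11 at 58948911-58955192 and Hist4 on chromosome 6 at 136803993-136804431. Of the 67 symbols, 66 matched a single RefSeq gene through its listed synonyms; Hist1h2ap matched more than 1 and is given no position. A promoter of 300 bases, 250 before and 50 after the annotated start, was at hand for 61 members.

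The next promoters, from the RefSeq table on GRCm38.p6, are shown because their members hold the class elements or mark the ends of the range of signal. Capitals mark the octamer (letters ATTTGCAT), the box TATAAA, the box CCAAT and the H1 box (letters AAACACA), or their reverse complements. Hist1h2bk encodes an H2B with the octamer close to the start; Hist1h2bh is the H2B gene with the highest signal and has no octamer match. Hist1h2ba is a testis H2B gene with an octamer match and almost no signal. Hist1h1c is the H1 gene with the highest signal. Hist1h4j is an H4 gene with no CCAAT match and with a TATAAA match that begins 2 bases before the annotated start.
Hist1h2bk promoter (chr13:22035571-22035870, plus strand): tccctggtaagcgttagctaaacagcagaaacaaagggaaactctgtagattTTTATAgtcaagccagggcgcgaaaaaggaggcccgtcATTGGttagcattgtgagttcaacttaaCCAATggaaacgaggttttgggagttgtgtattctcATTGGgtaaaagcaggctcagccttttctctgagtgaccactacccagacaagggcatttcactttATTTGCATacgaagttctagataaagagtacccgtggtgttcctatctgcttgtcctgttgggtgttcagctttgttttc
Hist1h2bh promoter (chr13:23543395-23543694, minus strand): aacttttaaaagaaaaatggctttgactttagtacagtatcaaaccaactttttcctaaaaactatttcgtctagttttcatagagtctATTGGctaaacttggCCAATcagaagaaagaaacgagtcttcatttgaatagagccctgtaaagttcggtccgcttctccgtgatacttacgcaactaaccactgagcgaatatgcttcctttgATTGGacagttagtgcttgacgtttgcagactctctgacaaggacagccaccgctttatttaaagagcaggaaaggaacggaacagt
Hist1h2ba promoter (chr13:23934107-23934406, minus strand): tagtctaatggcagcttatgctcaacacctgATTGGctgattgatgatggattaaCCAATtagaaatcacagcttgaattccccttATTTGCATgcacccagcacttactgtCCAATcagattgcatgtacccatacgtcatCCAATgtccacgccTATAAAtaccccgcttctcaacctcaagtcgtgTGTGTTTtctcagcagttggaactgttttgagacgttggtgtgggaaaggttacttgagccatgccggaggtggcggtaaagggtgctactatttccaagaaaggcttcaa
Hist1h1c promoter (chr13:23738557-23738856, plus strand): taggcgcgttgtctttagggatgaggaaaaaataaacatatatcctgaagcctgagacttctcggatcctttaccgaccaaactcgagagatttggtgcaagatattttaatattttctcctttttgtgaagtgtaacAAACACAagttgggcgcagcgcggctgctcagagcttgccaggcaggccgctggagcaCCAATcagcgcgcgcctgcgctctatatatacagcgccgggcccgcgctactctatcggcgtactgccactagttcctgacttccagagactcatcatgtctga
Hist1h4j promoter (chr13:21734784-21735083, plus strand): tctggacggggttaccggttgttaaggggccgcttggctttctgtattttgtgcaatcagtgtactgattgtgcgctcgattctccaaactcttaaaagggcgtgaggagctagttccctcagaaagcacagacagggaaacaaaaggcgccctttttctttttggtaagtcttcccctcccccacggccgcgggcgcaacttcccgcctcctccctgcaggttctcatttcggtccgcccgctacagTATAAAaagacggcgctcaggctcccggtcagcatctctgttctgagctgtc

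Hist1h2bq and Hist1h2br encode H2B in a duplicated stretch of Hist1. Their promoters are shown as a pair because 0 of 300 bases differ between them, and both genes had very little signal.
Hist1h2bq promoter (chr13:21810150-21810449, minus strand): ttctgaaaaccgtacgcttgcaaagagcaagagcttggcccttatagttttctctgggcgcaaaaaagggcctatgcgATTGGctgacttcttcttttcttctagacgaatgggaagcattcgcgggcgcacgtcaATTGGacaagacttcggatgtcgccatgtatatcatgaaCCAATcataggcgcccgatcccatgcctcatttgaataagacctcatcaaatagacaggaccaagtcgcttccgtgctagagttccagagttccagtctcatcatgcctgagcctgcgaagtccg
Hist1h2br promoter (chr13:21833493-21833792, plus strand): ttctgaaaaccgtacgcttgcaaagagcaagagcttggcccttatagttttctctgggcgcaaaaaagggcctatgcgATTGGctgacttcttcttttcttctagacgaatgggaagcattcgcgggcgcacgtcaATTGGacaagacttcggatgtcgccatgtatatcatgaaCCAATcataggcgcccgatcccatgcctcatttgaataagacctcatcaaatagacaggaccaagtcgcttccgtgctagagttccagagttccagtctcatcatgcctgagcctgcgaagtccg

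On either strand, the octamer ATTTGCAT was present in 21.3% of the 61 member promoters, against 1.74% of all 32851 promoters of the same length. It was found in 7 of 17 H2A and 6 of 16 H2B promoters and in 0 of the 6 H1, 10 H3 and 12 H4 promoters. CCAAT was present in 85.2% of member promoters, against 37.4% of all: in each of the H1, H2A, H2B and H3 promoters, but in 3 of the 12 H4 promoters. TATAAA was present in 57.4%, against 13.6% of all promoters, and AAACACA in 14.8%, against 7.18%. AAACACA was found in 5 of the 6 H1 promoters. Of the short cores bound by the other viral factors, CACCC (Klf) was in 32.8% of member promoters, against 57.5% of all, and ACAAT (Sox), which can overlap other elements, in 41.0%, against 31.0%. A match is a run of letters and does not show binding. The H2A and H2B promoters are not all separate stretches of DNA. In 9 divergent pairs of an H2A and an H2B gene the starts lay 164 to 281 bases apart. Their promoters overlap, so a match between the starts can be counted for both genes.

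The median histone member had more signal than the median gene in every column. Over the 20 columns the median signal of the 67 members lay between 7.94 and 24.4, against 3.38 to 11.8 for the median of all genes. The ratio of the medians lay between 1.57 and 2.77, and the median member ranked between the 63.4th and the 79.0th percentile of the genes. The unit is the authors' density, whose window and scaling the sources used here do not give. The columns' sums over all genes ran between 112439 and 370390, so raw values of different columns are not on a common scale. Depth in reads is unknown, so no counting error can be given. At a minimum value of 6.92, which is the table's median value, 52 members were above it by their mean over the columns and 15 were below. In every column 43 members were above the minimum, and 12 were above it in no column. Within single columns 43 to 55 of the 67 members reached it, against 6480 to 13004 of all 21965 genes.

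Flag had the highest ratio of member median to all-gene median in both of its columns. In column 1 the ratio was 2.77 with Flag and between 1.96 and 2.37 in the 9 other conditions. In column 2 it was 2.31 with Flag and between 1.57 and 2.05 in the others. The 9 comparisons with Flag share its columns, so their common sign is not 9 separate observations. The order of the members hardly differed between libraries: Spearman's rho between a condition's mean values and those of Flag lay between 0.95 and 0.969 over the 67 members, which share promoters and libraries.

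**Figure D1:**
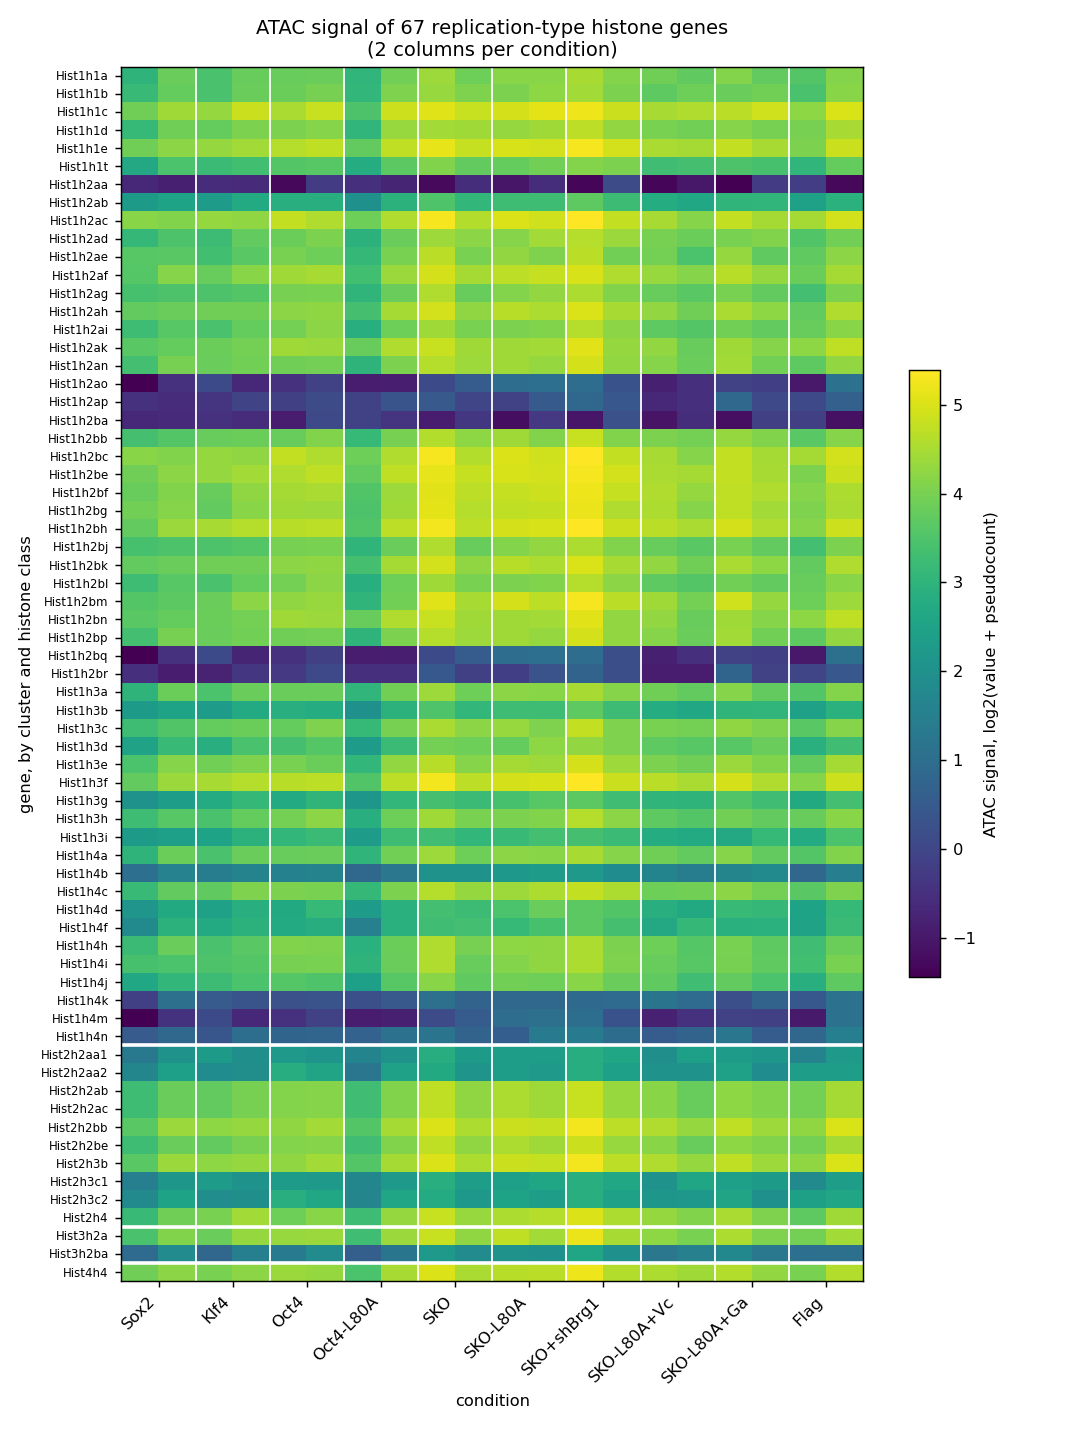
Rows are the 67 histone genes, ordered by cluster (Hist1, Hist2, Hist3, Hist4, separated by white lines) and class; columns are the 2 columns of each of 10 conditions; colour is log2 of the ATAC signal plus a pseudocount. The dark rows, such as Hist1h2aa, Hist1h2ba, Hist1h2ao, Hist1h2bq and Hist1h4m, are dark in each condition, and most others stay bright.

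Before the comparisons, the viral factors were looked up in the same table. The Sox2 gene had 75.5 and 87.1 with Sox2, against 2.73 and 5.12 with Flag, and Klf4 had 166 and 146 with Klf4, against 12.6 and 17.8 with Flag. The library labelled Oct4 had 62.9 and 55.2 at the Sox2 gene, although its label names no Sox2 virus. Oct4-L80A had 2.37 and 5.47 there. At the gene of Oct4 (Pou5f1) the library labelled Oct4 had 30.8 and 24.2, against 0.812 and 1.12 with Flag. Results that rest on the library labelled Oct4 are therefore given under that name, and where it sets the end of a range over the comparisons with Flag, the range without it is also given. Smarca4, the gene of Brg1, had 24.4 and 16.6 with SKO+shBrg1, against 19.8 and 14.7 in SKO; a hairpin acts on RNA, so this does not check the knockdown. Gadd45a had 36.6 and 41.5 with SKO-L80A+Ga, against 37.3 and 52.1 with SKO-L80A. The Gadd45a gene thus gave no sign of the added virus, unlike the genes of the other viral factors, and SKO-L80A+Ga is named here by its label alone. Of 13 fibroblast markers 8 were above the minimum by their mean, among them Vim (39.8), Fn1 (29.0) and Col1a1 (19.3), while Thy1 (4.98), Dcn (5.13) and Lum (0.90) were below it. Of 7 pluripotency markers, only the viral genes Sox2 and Pou5f1 were above the minimum by their mean. Of the others, Nanog (0.54), Zfp42 (0.71) and Dppa3 (0.85) were near 0, and Esrrb and Sall4 were below the minimum.

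By class, the median of the members' mean signals was 16.1 for H1, 15.4 for H2A, 18.7 for H2B, 13.3 for H3 and 11.7 for H4. The classes overlapped widely. Among the linker histones Hist1h1c had the highest mean (25.9, between 11.1 and 36.7 over the columns), close to Hist1h1e (24.9). Hist1h1d (17.4), Hist1h1a (14.8) and Hist1h1b (14.8) followed. Hist1h1t encodes a linker histone of male germ cells and was lowest of the 6 with 11.7, yet it stayed between 6.25 and 17.3 and so was mostly above the minimum in these fibroblasts.

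Among the core histones the highest H2A member was Hist1h2ac (24.9), the highest H2B member Hist1h2bh and the highest H3 member Hist1h3f (25.8 each, as neighbours that share their signal). The highest H4 member was Hist4h4 (21.8), the single gene of Hist4. The lowest H2A and H2B members were Hist1h2aa (0.472) and Hist1h2ba (0.561), a divergent pair that encodes histones of the testis. Their highest single columns were 0.967 and 1.04, so both stayed far under the minimum in each library. The lowest H3 member was Hist2h3c1 (4.88) and the lowest H4 member Hist1h4m (0.922). In Hist3, Hist3h2a had 19.8 and Hist3h2ba 2.95.

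The rows of the table were not separate measurements of separate genes. At a tolerance of 5% in every column the 67 members held 50 distinct signals, and at 1% they held 56. At 5%, 30 members fell into 13 groups, 4 of 3 genes and 9 of 2 genes. Hist1h2bl, Hist1h2ai and Hist1h3h shared a signal with a mean of 14.9, and Hist2h2ab, Hist2h2ac and Hist2h2be one of 17.8. Hist1h4a, Hist1h3a and Hist1h1a, which encode 3 different histone classes, shared one of 14.8. Hist2h3b and Hist2h2bb were identical in all 20 columns, and Hist3h2a was identical to Trim17, a ubiquitin ligase gene beside it that is no histone gene.

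Sharing was more frequent between genes with close starts. Of all neighbouring gene pairs in the table, 84.6% shared their values with starts under 500 bases apart, 61.3% at 1000 to 1500 bases, 38% at 2000 to 2500 bases and 3.07% at 5000 to 10000 bases. Among the histone genes 9 divergent neighbours had starts under 500 bases apart, between 164 and 281 bases with a median of 180, and 5 of these 9 pairs shared their values. At 1000 to 1500 bases 5 of 9 histone pairs did, and above 2500 bases none of the 20 pairs up to 10000 bases did. A count of histone members therefore counts some accessible sites more than once. The main counts of members lower in both columns against Flag are also given per distinct signal, but most other counts below are not.

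**Figure D2:**
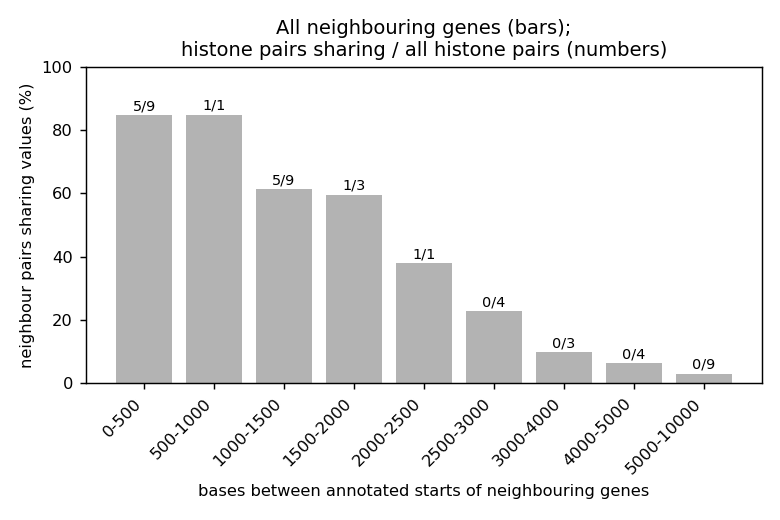
The x axis is the distance in bases between the annotated starts of neighbouring genes and the bars are the percentage of all such pairs whose values agree within 5% in every column. The numbers above the bars are histone pairs sharing over all histone pairs in that bin; sharing is most frequent under 1000 bases and 3.07% in the last bin.

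Members whose promoter sequence also occurs elsewhere had low signal. Each promoter was split into words of 40 bases, and the share of words found in another of the 32851 RefSeq promoters was counted. Promoters that overlap it on the chromosome, such as that of a close divergent neighbour, were left out. In 9 members over 50% of the words were found elsewhere, between 69.0% and 100%. Their mean signals lay between 0.811 and 5.10, with a median of 1.76, and 0 of the 9 reached the minimum. In the 49 members with no shared word the median was 16.4 and 45 reached the minimum. Of the 3 members in between, Hist1h4j had 11.7 and Hist1h4k 1.48, although both shared 18.8% of their words, and Hist1h2ad had 15.3. The 9 were the H2A genes Hist2h2aa1, Hist2h2aa2 and Hist1h2ao, the H2B genes Hist1h2bq and Hist1h2br, the H3 genes Hist2h3c1 and Hist2h3c2, and the H4 genes Hist1h4m and Hist1h4n. Reads from such copies can map to more than one place, and their treatment by the authors was not stated in the sources; the part of this in the low values was not tested. The 2 testis genes had no shared word and were low too.

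**Figure D3:**
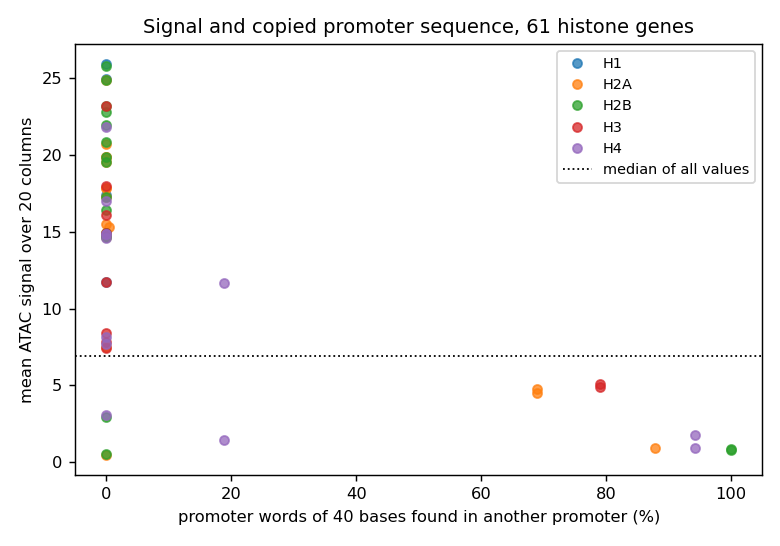
Each point is 1 of 61 histone genes with a promoter; the x axis is the percentage of its 40-base words found in another promoter, the y axis its mean ATAC signal over 20 columns, and colour the histone class. All points to the right of 50% lie under the dotted line at 6.92, the median of all values.

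For the comparisons, the log2 value of signal + 0.138, the added pseudocount, was averaged over the 2 columns, and the median difference of all genes was subtracted. A member was counted as lower or higher in both columns when same-numbered columns each differed by at least 0.32 on the log2 scale, in the same direction and relative to all genes, and the higher mean reached the minimum. Without that subtraction the raw median of all genes differed from Flag by 0.18 in the library labelled Oct4, -0.16 in Oct4-L80A, 0.50 in SKO, 0.52 in SKO-L80A, 0.62 in SKO+shBrg1 and 0.24 in SKO-L80A+Ga, and by less than 0.1 in the other 3 comparisons with Flag. All differences below are relative to that median. No member that reached the minimum differed by 2-fold in any of the 14 comparisons. Below it, Hist1h2br was at -1.13 in SKO-L80A+Vc against Flag, and Hist1h2ao (-1.20), Hist1h2bq (-1.20) and Hist1h4m (-1.19) in SKO-L80A+Vc against SKO-L80A, where the condition means of these 4 genes were between 0.393 and 1.91.

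Among the comparisons with Flag, Sox2 alone had the lowest histone median relative to all genes. Beside genes at the minimum alone, SKO-L80A lay slightly farther below, as given with the combinations. In Sox2 the median difference of the 67 members was -0.33 on the log2 scale (0.80-fold). It was -0.25 in column 1 and -0.53 in column 2, and 62 of the 67 were below 0. All genes at the minimum had a median of -0.14 and the members at the minimum one of -0.34. Of 50 members at the minimum, 13 were lower in both columns, or 7 of 35 distinct signals, against 6.9% of all genes at the minimum; 0 were higher, against 2.1%, and 0 passed 2-fold, against 0.347%. With a trend over level removed 5 members were lower in both columns and the median was -0.24; with quantile normalisation 5 were lower and the median was -0.26. The 5 classes lay close together, between -0.35 for H2B and -0.30 for H1.

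Among single members Hist1h3g, an H3 gene, was lowest: it had 3.99 and 4.97 with Sox2, against 6.44 and 10.1 with Flag, a difference of -0.75. Hist1h2ak and Hist1h2bn, an H2A and an H2B gene that share their signal, had 12.4 and 13.5 in Sox2 for Hist1h2ak, against 18.4 and 26.6 with Flag (-0.69). Neither pair of columns overlapped between the conditions. Hist1h1d had 8.59 and 15.0 with Sox2, against 15.7 and 22.3 with Flag (-0.63). Its columns did not overlap either, by a narrow gap. At the other end Hist1h4h, an H4 gene, had 9.11 and 13.9 with Sox2, against 9.60 and 14.2 with Flag (0.04), and Hist1h4i (-0.15) and Hist1h2bj (-0.16) were next.

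Klf4 alone gave a median of -0.20, -0.17 in column 1 and -0.31 in column 2, with 55 of 67 members below 0. In both columns 11 of 50 members were lower, or 6 of 35 distinct signals, against 9.7% of all genes; 0 were higher, against 6.18%, and 0 passed 2-fold, against 1.74%. After removal of the trend over level 4 were lower, after quantile normalisation 5, and with a pseudocount 4 times larger 7. Hist1h2ak had 14.3 and 15.4 with Klf4, against 18.4 and 26.6 with Flag (-0.60). Hist1h2ae, an H2A gene, had 9.76 and 12.4 with Klf4, against 13.05 and 18.1 with Flag (-0.51), and neither of these overlapped with Flag. Hist2h4, the H4 gene of Hist2, had 16.0 and 21.6 with Klf4, against 12.9 and 21.0 with Flag (0.15), so its columns overlapped.

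In the library labelled Oct4 the median was -0.13 (-0.03 and -0.21 in the columns), and without the subtraction it was 0.05. Of 51 members 3 were lower in both columns, or 2 of 36 signals, against 1.62% of all genes; 0 were higher, against 5.38%, and 0 passed 2-fold, against 0.504%. The 3 were Hist1h3g (-0.35) and the identical pair Hist2h3b and Hist2h2bb (-0.46), which had 19.1 and 21.6 in the library labelled Oct4, against 18.9 and 31.9 with Flag, with raw columns that overlapped. Hist1h4h had 17.0 and 16.5 there, against 9.60 and 14.2 with Flag, the largest difference of a member above the minimum in this comparison (0.33; 0.47 and 0.17 in the columns). Oct4-L80A had a median of -0.18 (-0.20 and -0.15). Of 50 members 6 were lower, or 3 of 35 signals, against 2.93%; 0 were higher, against 0.345%, and 0 passed 2-fold, against 0.0383%. With the trend removed or with quantile normalisation 1 member was lower.

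The 6 were Hist1h2bm, the pair Hist2h3b and Hist2h2bb, and the trio Hist2h2ab, Hist2h2ac and Hist2h2be. Hist1h2bm, an H2B gene with an octamer match, had 8.01 and 15.2 with Oct4-L80A, against 14.5 and 20.9 with Flag (-0.49), so its columns overlapped before the scaling to all genes. Hist2h3b had 11.6 and 22.1 with Oct4-L80A, against 18.9 and 31.9 with Flag (-0.45). Hist2h2ab had 9.62 and 17.0, against 15.5 and 21.9 with Flag (-0.36). The raw columns of both overlapped with Flag.

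**Figure D4:**
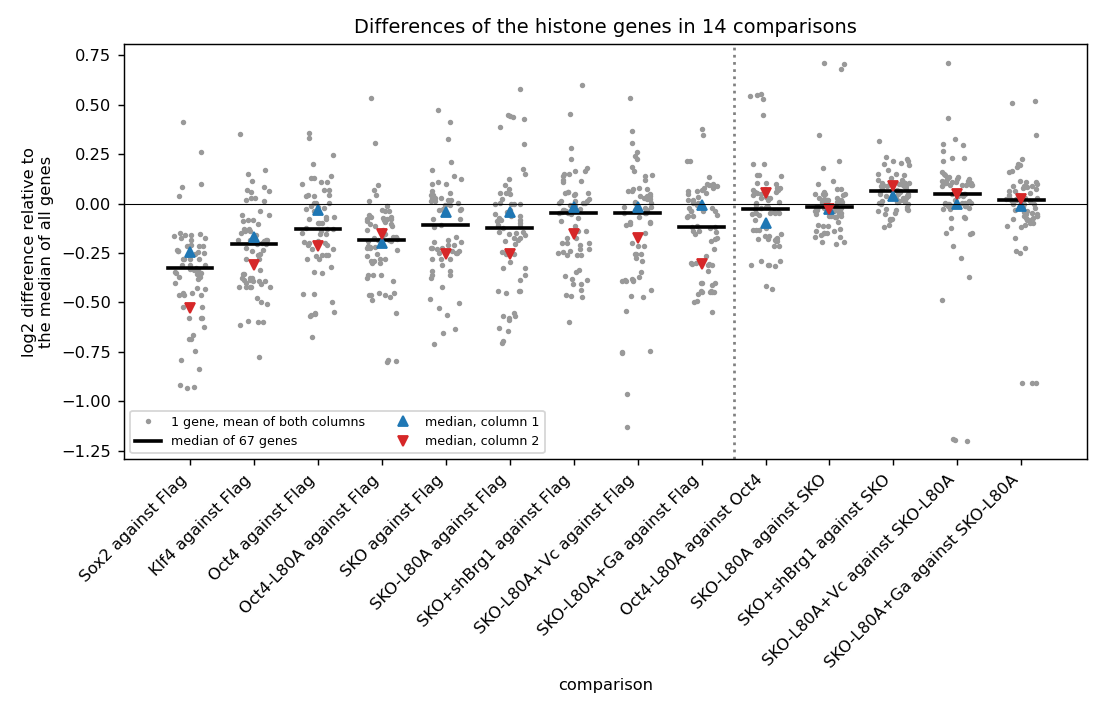
The y axis is the log2 difference of ATAC signal, with the all-gene median at 0; each grey point is 1 of 67 histone genes (mean of both columns), the bar their median and the triangles the medians of column 1 and column 2. To the left of the dotted line are the 9 comparisons with Flag, where medians lie between -0.33 and -0.05; to the right are the 5 others, between -0.03 and 0.07.

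In the combinations the histone genes lay nearer to the median of all genes, a reference that includes genes of low signal. SKO had a median of -0.11 (-0.04 and -0.25 in the columns), SKO-L80A -0.12 (-0.04 and -0.25), SKO+shBrg1 -0.05 (-0.02 and -0.16), SKO-L80A+Vc -0.05 (-0.02 and -0.17) and SKO-L80A+Ga -0.12 (-0.01 and -0.31). Without the subtraction the medians were positive in SKO (0.40), SKO-L80A (0.39), SKO+shBrg1 (0.57) and SKO-L80A+Ga (0.13), and -0.02 in SKO-L80A+Vc. In each of the 5, column 2 lay lower than column 1. Over all 9 comparisons with Flag the medians ran between -0.33 and -0.05, and the range is the same without the library labelled Oct4. Beside genes at the minimum alone, this did not hold. Only SKO-L80A+Vc was nearer than each single factor. The other combinations lay farther away than Klf4 and Oct4-L80A, and SKO-L80A was the farthest of all 9. Members at the minimum had -0.34 beside -0.14 for all such genes with Sox2. Klf4 gave -0.20 beside -0.09, the library labelled Oct4 -0.13 beside 0.06 and Oct4-L80A -0.19 beside -0.12. For the combinations it was -0.03 beside 0.10 with SKO, -0.12 beside 0.10 with SKO-L80A and -0.03 beside 0.11 with SKO+shBrg1. SKO-L80A+Vc gave -0.04 beside 0.01 and SKO-L80A+Ga -0.06 beside 0.06.

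In SKO 3 of 52 members were lower in both columns, against 1.6% of all genes, and in SKO-L80A 6 of 52, against 1.38%. In SKO+shBrg1 2 of 52 were lower, against 1.46%, in SKO-L80A+Vc 3 of 50, against 2.96%, and in SKO-L80A+Ga 9 of 52, against 1.65%. Per distinct signal these were 2 of 36, 3 of 36, 2 of 36, 1 of 35 and 4 of 36. No member was higher in SKO, against 12.4% of all genes, in SKO-L80A, against 13.6%, in SKO+shBrg1, against 12.9%, or in SKO-L80A+Ga, against 7.6%. In SKO-L80A+Vc 1 member, Hist1h3d, was higher, against 7.37%. Past 2-fold were 0 members, against 2.51% of all genes in SKO, 2.45% in SKO-L80A, 2.47% in SKO+shBrg1, 1.94% in SKO-L80A+Vc and 1.75% in SKO-L80A+Ga.

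The same few signals made up most of these counts. Hist1h2ak and Hist1h2bn, the trio Hist1h2bl, Hist1h2ai and Hist1h3h, and Hist1h1d were each lower in both columns in 5 of the 9 comparisons, and Hist2h2ab, Hist2h2ac and Hist2h2be in 4. Hist1h3i, Hist2h3b and Hist2h2bb were lower in 3. Since all 9 share Flag, a high value in Flag alone enters each of them.

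Hist1h2ak had 12.4 and 13.5 in Sox2, 14.3 and 15.4 in Klf4, 21.1 and 20.3 in the library labelled Oct4, 13.7 and 23.8 in Oct4-L80A, 28.1 and 21.4 in SKO, 21.2 and 21.6 in SKO-L80A, 33.7 and 19.5 in SKO+shBrg1, 19.3 and 13.7 in SKO-L80A+Vc, 21.3 and 17.4 in SKO-L80A+Ga, and 18.4 and 26.6 with Flag. The raw values of Flag lay within the range of the others and only Sox2 and Klf4 were below both of them in both columns. Relative to all genes the differences were between -0.69 in Sox2 and -0.13 in Oct4-L80A.

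Hist1h2bl, with the same signal as Hist1h2ai and Hist1h3h, had 9.51 and 12.1 in Sox2, 10.6 and 13.5 in Klf4, 15.5 and 18.1 in the library labelled Oct4, 7.18 and 14.4 in Oct4-L80A, 21.3 and 15.9 in SKO, 16.3 and 16.9 in SKO-L80A, 24.4 and 18.3 in SKO+shBrg1, 12.9 and 11.6 in SKO-L80A+Vc, 15.1 and 13.2 in SKO-L80A+Ga, and 13.9 and 18.0 with Flag. Relative to all genes it was between -0.46 in Sox2 and in Oct4-L80A and -0.10 in the library labelled Oct4; without that library the upper end was -0.20, in SKO+shBrg1.

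Hist1h1d, which encodes a linker histone, had 8.59 and 15.0 in Sox2, 13.6 and 16.2 in Klf4, 16.4 and 17.7 in the library labelled Oct4, 8.08 and 19.97 in Oct4-L80A, 21.6 and 21.3 in SKO, 19.8 and 21.2 in SKO-L80A, 25.9 and 19.2 in SKO+shBrg1, 16.1 and 15.1 in SKO-L80A+Vc, 17.6 and 15.8 in SKO-L80A+Ga, and 15.7 and 22.3 with Flag. Relative to all genes it was negative in all 9, between -0.63 in Sox2 and -0.29 in SKO-L80A+Vc. The other 5 linker histone genes lay above it in each of the 9. Hist1h1c was between -0.37 in Sox2 and -0.06 in Klf4, and Hist1h1a between -0.33 and -0.05. Hist1h1e was between -0.28 and 0.07, or 0.06 without the library labelled Oct4. Hist1h1t was between -0.26 and 0.05 and Hist1h1b between -0.25 and -0.04.

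Hist1h3d stood at the opposite end in the combinations. It had 5.48 and 8.79 in Sox2, 7.10 and 10.6 in Klf4, 10.2 and 11.9 in the library labelled Oct4, 4.88 and 9.09 in Oct4-L80A, 15.5 and 14.7 in SKO, 13.5 and 18.7 in SKO-L80A, 19.2 and 16.5 in SKO+shBrg1, 12.9 and 12.1 in SKO-L80A+Vc, 12.1 and 14.03 in SKO-L80A+Ga, and 7.33 and 9.69 with Flag. All 5 combinations, and the library labelled Oct4, were above Flag in both columns without overlap. Part of this raw gap is one of scale, since some all-gene medians cleared those of Flag (4.45 and 7.55) too. Their lower column was at 9.66 for SKO+shBrg1, at 8.89 for SKO, at 8.84 for SKO-L80A and, narrowly, at 7.59 for SKO-L80A+Ga. The all-gene medians did overlap with Flag for SKO-L80A+Vc, whose lower one was 6.47, and for the library labelled Oct4, where it was 6.33. Relative to all genes the differences were 0.32 in SKO, 0.38 in SKO-L80A, 0.45 in SKO+shBrg1, 0.53 in SKO-L80A+Vc and 0.38 in SKO-L80A+Ga. They were 0.20 in the library labelled Oct4, 0.01 in Klf4, -0.17 in Oct4-L80A and -0.19 in Sox2. In column 1 alone those of the combinations were smaller, between 0.09 in SKO and 0.47 in SKO-L80A+Vc.

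Hist1h3g and Hist1h3i, H3 genes also named by the counts, differed from it. The H3 genes Hist1h3h and Hist2h3b were counted too and are given above with the genes that share their signals. Hist1h3i had 4.73 and 5.22 in Sox2, 5.55 and 7.61 in Klf4, 9.73 and 8.26 in SKO, 10.2 and 9.08 in SKO+shBrg1, 6.29 and 8.61 in SKO-L80A+Ga, and 6.62 and 10.8 with Flag. Relative to all genes it was between -0.66 and -0.36 in Sox2, Klf4 and the 5 combinations. It was nearer to 0 in the library labelled Oct4 (-0.15), with 8.29 and 9.07, and in Oct4-L80A (-0.15), with 4.84 and 9.50. Hist1h3g was -0.75 in Sox2 but 0.14 in SKO-L80A+Ga.

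In cluster Hist2 all 10 members were below 0 in Sox2, with a median of -0.48, and 6 of the 10 were above the minimum. These 6, Hist2h2ab, Hist2h2ac, Hist2h2be, Hist2h4, Hist2h3b and Hist2h2bb, were all lower in both columns, and they hold 3 distinct signals. Hist2h4 had 8.77 and 15.0 with Sox2, against 12.9 and 21.0 with Flag (-0.43), so its columns overlapped before scaling. The other 4, the duplicated genes Hist2h2aa1, Hist2h2aa2, Hist2h3c1 and Hist2h3c2, were under the minimum by their mean. In the other comparisons with Flag the Hist2 median lay between -0.38 in Klf4 and -0.23 in SKO. Hist3h2a was -0.35 in Sox2 and Hist3h2ba 0.41, but Hist3h2ba had 1.78 and 3.44 with Sox2, against 1.93 and 1.98 with Flag, below the minimum. Hist4h4 had 14.9 and 18.1 with Sox2, against 16.0 and 24.3 with Flag (-0.17; 0.05 and -0.39 in the columns).

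Starts of the Hist1 members over 100 kb apart split the cluster into 4 stretches. Stretch 1, from Hist1h2bl to Hist1h2br, held 17 of the members with a position and the duplicated genes of Hist1, and 11 of its members were above the minimum by their mean over all columns. Its median relative to Flag was -0.46 in Sox2, -0.40 in Klf4, -0.23 in the library labelled Oct4, -0.30 in Oct4-L80A, -0.28 in SKO, -0.20 in SKO+shBrg1, -0.36 in SKO-L80A, -0.39 in SKO-L80A+Vc and -0.40 in SKO-L80A+Ga. Stretch 3, from Hist1h4h to Hist1h1a, held 29 members of which 28 were above the minimum. Its medians were -0.31 in Sox2, -0.19 in Klf4, -0.08 in the library labelled Oct4, -0.18 in Oct4-L80A, -0.03 in SKO, -0.01 in SKO+shBrg1, -0.06 in SKO-L80A, 0.02 in SKO-L80A+Vc and 0.02 in SKO-L80A+Ga. Stretch 2, from Hist1h2ah to Hist1h2bj, held 5 members at -0.16 in Sox2 and -0.01 in SKO. The testis pair formed the last stretch, and its values were under the minimum. The stretches were split after the values were seen and differ in their share of copied genes, so no order is read from them.

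The remaining 5 comparisons set conditions with factors against each other. Oct4-L80A against the library labelled Oct4 had a median of -0.03 (-0.10 and 0.05 in the columns; raw all-gene difference -0.40). There 1 of 50 members was lower in both columns, against 4.62% of all genes, 0 were higher, against 0.383%, and 0 passed 2-fold, against 0.41%. The 1 was Hist1h2bm, with 8.01 and 15.2 with Oct4-L80A, against 18.9 and 20.2 in the library labelled Oct4 (-0.42). Its columns did not overlap. With quantile normalisation or the trend removed it was not counted. Hist1h3d (-0.32) and Hist1h2bl (-0.31) were next, and Hist1h2ak (0.20) was the highest together with Hist1h2bn.

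SKO-L80A against SKO had a median of -0.02 (-0.03 in both columns). No member of 52 was lower, against 0.174%, and 1 was higher, against 0.253%; 0 passed 2-fold, against 0.0158%. The 1 was Hist1h4d, an H4 gene, with 10.9 and 13.9 with SKO-L80A, against 10.1 and 9.26 with SKO (0.35), without overlap; with the larger pseudocount, quantile normalisation or the trend removed it was not counted. SKO+shBrg1 against SKO had a median of 0.07 (0.04 and 0.09), with 0 of 52 lower, against 0.0937%, 0 higher, against 0.281%, and 0 past 2-fold, against 0.00781%.

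SKO-L80A+Vc against SKO-L80A had a median of 0.05 (-0.003 and 0.05; raw all-gene difference -0.49). None of 52 was lower, against 2.41%, or higher, against 0.36%, and 0 passed 2-fold, against 0.016%. Hist1h4d had 7.03 and 6.40 with SKO-L80A+Vc, against 10.9 and 13.9 with SKO-L80A (-0.37, and -0.28 and -0.49 in the columns), short of the limit in column 1. Its raw columns did not overlap, but neither did those of the all-gene median (6.47 and 6.57, against 8.84 and 10.9). Hist4h4 had 23.3 and 21.2 with SKO-L80A+Vc, against 25.2 and 25.4 in SKO-L80A, which is 0.30 relative to all genes although its raw values were lower. SKO-L80A+Ga against SKO-L80A had a median of 0.02 (-0.01 and 0.02; raw all-gene difference -0.25). None of 52 was lower, against 0.504%, or higher, against 0.048%, and 0 passed 2-fold, against 0%. Hist1h4d was again lowest, with 8.95 and 8.45 with SKO-L80A+Ga, against 10.9 and 13.9 with SKO-L80A (-0.24).

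**Figure D5:**
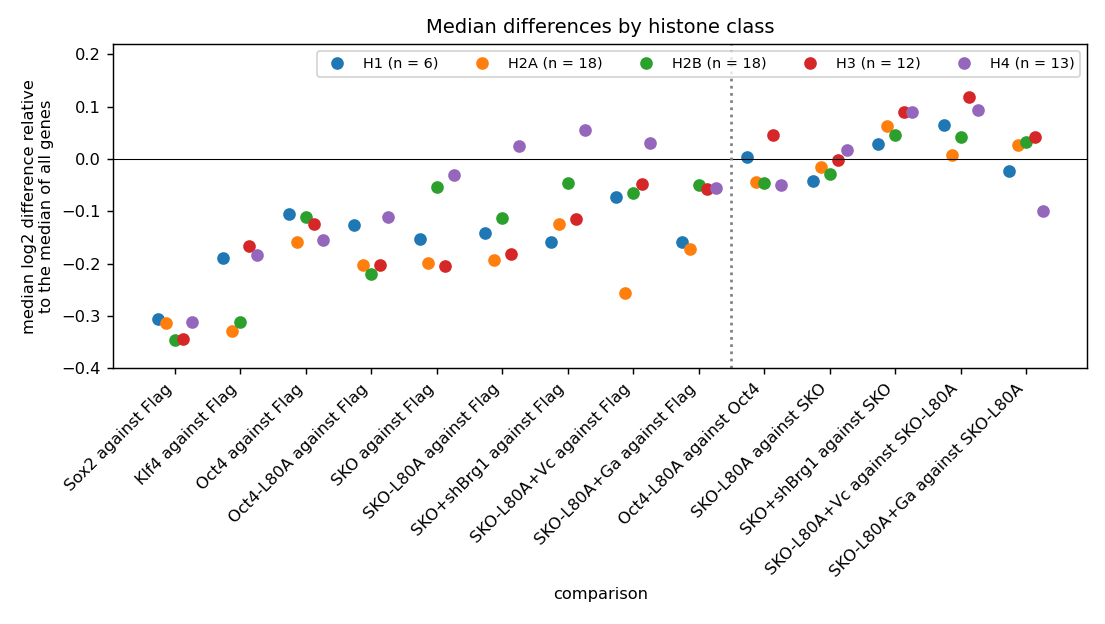
The y axis is the median log2 difference of ATAC signal, with the all-gene median at 0, and the colours are the histone classes, with their number of genes. The 5 classes lie between -0.35 and -0.30 in Sox2 against Flag and spread more widely in Klf4 and in the combinations; right of the dotted line they lie near 0.

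In Klf4 the H2A (-0.33) and H2B (-0.31) medians lay below those of H1 (-0.19), H4 (-0.18) and H3 (-0.17). The columns of H1 alone differed by more (-0.07 and -0.29), and the shared signals of H2A and H2B pairs enter both classes. Members above the minimum by their mean over all columns were split by the octamer, a rule that adds Hist1h2ab to those counted for Sox2. In Sox2 the 6 H2A members with an octamer match had -0.32 and the 7 without had -0.34, and the 5 H2B members with had -0.34 and the 7 without -0.31. In the library labelled Oct4 the H2B medians were -0.12 with and -0.04 without, and in SKO 0.02 with and -0.01 without. The H2A medians were -0.16 with and -0.10 without in the library labelled Oct4. In SKO they were -0.14 with and -0.01 without.

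Genes of related function that are not in the clusters were looked at for comparison, from lists chosen with earlier results of these data known. In Sox2 the 24 genes of S phase DNA replication had a median of -0.28 with 1 of 23 at the minimum lower in both columns. The 16 histone chaperone genes, whose proteins carry histones to DNA, had -0.28 with 1 of 15 lower. The 15 genes of histone RNA synthesis and processing, such as Slbp, the stem-loop binding protein, and Npat, had -0.19 with 0 of 15 lower. The 14 replication-independent histone genes, such as H3f3a and H2afz, had -0.07 with 1 of 10 lower. Their column medians were 0.01 and 0.02, so no direction is read from that value. Cytosolic ribosomal protein genes, which encode the proteins of the ribosome, had -0.24 with 13 of 79 lower, and the fibroblast markers -0.36 with 1 of 8 lower. The background for these counts is the 6.9% of all genes given above. Their part in the difference of the histone genes was not tested.

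In Klf4 the medians were -0.18 for S phase genes, -0.25 for chaperones, -0.21 for processing genes, -0.13 for replication-independent histones, -0.19 for ribosomal protein genes and -0.20 for fibroblast markers. Of those at the minimum, 4 of 23, 4 of 15, 1 of 15, 4 of 10, 8 of 79 and 4 of 8 were lower in both columns, in that order. The background in Klf4 was 9.7% of all genes. In SKO the medians were 0.01, -0.02, 0.06, 0.12, -0.11 and -0.20 in the same order. There column 1 gave 0.04, -0.01, 0.15, 0.15, -0.02 and -0.18, and column 2 gave -0.09, -0.08, -0.12, -0.11, -0.25 and -0.22. Over the 9 comparisons with Flag the ribosomal protein genes lay between -0.24 and -0.07, and the processing genes between -0.21 and 0.06. The 47 other genes between the Hist1 histone genes had almost no signal: their column medians were between 0.203 and 0.505, and 4 of the 47 were above the minimum by their mean. Their median in Sox2 was 0.22 on values near the pseudocount.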

How the data were processed

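ATAC-seq of 10 conditions, 1 library each, was read from the deposited table of 21965 genes and 20 columns, 2 per condition. Its values are a signal that the authors deposited as a density per gene; neither its window and scaling nor the relation of the 2 columns was given in the sources used here. With no role or order, the submitters' processing notes name the build mm10 and the tools bedtools 2.25.0, Bowtie2 2.2.5, cutadapt 1.13, deepTools, DESeq2 1.22.2, MACS2 2.1.0, Picard, SAMtools 1.3.1 and Trimmomatic 0.35. Python 3.11.15 with NumPy 2.4.6, pandas 2.3.3, SciPy 1.17.1, statsmodels 0.14.6 and Matplotlib 3.10.9 was used here.

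The members, the comparison lists and the rules were chosen with earlier results of these data known. Differences are log2(value + 0.138), averaged over both columns, minus the median difference of all genes. The pseudocount is the 10th percentile of the values above 0 and the minimum value 6.92 is the median of all values. A member had to reach it in the higher of the compared means. The size rules were 2-fold, and a log2 difference of 0.32 the same way in both columns. The rules were tested on simulated data. Depth is unknown, and no p-value, interval or replicate error is possible with 1 library per condition. Named were all members of Hist2, Hist3 and Hist4, the H1 genes, the testis genes and the highest and lowest of each class. Members past a size rule were also named. Of the 3 largest and 3 smallest differences per comparison, and of the members with shared values, only some were named. The alternatives were other pseudocounts, no minimum, quantile normalisation, no centring on all genes, removal of a lowess trend over level, each column alone, identical members counted once and Hist1 alone. Counting shared signals once and leaving out copied promoters were chosen after seeing the data. Symbols were matched to RefSeq (GRCm38.p6) by symbol or synonym. The genes named for the recurrent values of Hist1h3i, Hist1h3g and Hist1h2ad were also picked after their values were seen.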

Additional observations from a re-analysis of the deposited data

How the results depend on the processing

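No paired analysis was possible because each condition has 1 library. Each sign of a median against Flag was the same under both pseudocounts, quantile normalisation, removal of the trend, each column alone, Hist1 alone, identical or shared signals counted once and without copied promoters; it changed without centring on all genes. The cause of the changes below was not tested, apart from settings that only leave out members. "Lower" and "higher" are counts of members.

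Without centring, the medians against Flag were -0.35 in Oct4-L80A and, with a changed sign, 0.054 in the library labelled Oct4, 0.40 in SKO, 0.39 in SKO-L80A, 0.57 in SKO+shBrg1 and 0.13 in SKO-L80A+Ga. They were -0.42 with Oct4-L80A against the library labelled Oct4, 0.16 in SKO+shBrg1 against SKO and, with a changed sign, -0.44 in SKO-L80A+Vc and -0.24 in SKO-L80A+Ga against SKO-L80A. Lower were 21 in Sox2, 7 in Klf4 and 0 in the library labelled Oct4, SKO, SKO-L80A, SKO+shBrg1, SKO-L80A+Vc and SKO-L80A+Ga, 5 with Oct4-L80A against the library labelled Oct4 and 30 in SKO-L80A+Vc against SKO-L80A. Higher were 1 in SKO, 9 in SKO-L80A, 4 in SKO+shBrg1, 0 in SKO-L80A+Vc, 1 in SKO-L80A+Ga and 0 in SKO-L80A against SKO, and 1 passed 2-fold in SKO+shBrg1.

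With quantile normalisation 5 were lower in Sox2, 5 in Klf4, 1 in Oct4-L80A, 5 in SKO, 6 in SKO+shBrg1, 5 in SKO-L80A+Vc and 0 with Oct4-L80A against the library labelled Oct4; 0 were higher in SKO-L80A+Vc and in SKO-L80A against SKO. Medians were -0.081 in Oct4-L80A, -0.030 in SKO-L80A against SKO, 0.10 in SKO-L80A+Vc and 0.066 in SKO-L80A+Ga against SKO-L80A. Median levels were 14.8 in Sox2, 15.0 in Klf4, 14.3 in SKO-L80A, 14.8 in SKO+shBrg1 and 16.1 in SKO-L80A+Vc. With the trend removed 5 were lower in Sox2, 4 in Klf4, 1 in Oct4-L80A, 5 in SKO+shBrg1, 5 in SKO-L80A+Vc and 0 with Oct4-L80A against the library labelled Oct4; 0 were higher in SKO-L80A+Vc and in SKO-L80A against SKO. Medians were -0.091 in Oct4-L80A, -0.026 in SKO-L80A against SKO, 0.029 in SKO+shBrg1 against SKO, 0.11 in SKO-L80A+Vc and 0.068 in SKO-L80A+Ga against SKO-L80A.

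With column 1 alone 15 were lower in Oct4-L80A, 7 in SKO, 4 in SKO+shBrg1, 10 with Oct4-L80A against the library labelled Oct4 and 1 in SKO-L80A+Ga against SKO-L80A. Higher were 2 in the library labelled Oct4, 1 in SKO, 2 in SKO-L80A, 2 in SKO-L80A+Vc and 1 in SKO-L80A+Ga. Medians were -0.026 in SKO-L80A against SKO and, with a changed sign, -0.0033 in SKO-L80A+Vc and -0.012 in SKO-L80A+Ga against SKO-L80A. Oct4-L80A against the library labelled Oct4 also changed sign, to 0.072 with quantile normalisation, 0.068 with the trend removed and 0.053 with column 2 alone. With column 2 alone medians were -0.53 in Sox2, -0.31 in Klf4, -0.16 in SKO+shBrg1, -0.17 in SKO-L80A+Vc and -0.030 in SKO-L80A against SKO. Lower were 39 in Sox2, 23 in Klf4, 21 in the library labelled Oct4, 13 in SKO, 20 in SKO-L80A, 8 in SKO+shBrg1, 18 in SKO-L80A+Vc, 21 in SKO-L80A+Ga, 2 with Oct4-L80A against the library labelled Oct4, 2 in SKO-L80A against SKO and 1 in SKO-L80A+Vc against SKO-L80A. Higher were 1 in SKO, 2 in SKO-L80A, 1 in SKO+shBrg1, 1 in SKO-L80A+Ga, 1 with Oct4-L80A against the library labelled Oct4, and 4 in SKO-L80A+Vc and 2 in SKO-L80A+Ga against SKO-L80A; 1 passed 2-fold in Sox2. A single column needs to pass the limit of 0.32 on the log2 scale once, not 2 times, so more members pass by construction.

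With no minimum 7 were lower in the library labelled Oct4, 9 in SKO, 12 in SKO-L80A, 6 in SKO+shBrg1, 6 in SKO-L80A+Vc, and 4 in SKO-L80A+Vc and 3 in SKO-L80A+Ga against SKO-L80A. Higher were 1 each in Oct4-L80A, SKO-L80A, SKO+shBrg1 and Oct4-L80A against the library labelled Oct4, and 2 in SKO-L80A+Vc against SKO-L80A. Past 2-fold were 1 in SKO-L80A+Vc and 3 in SKO-L80A+Vc against SKO-L80A, all of genes whose condition means were under 2. With Hist1 alone 7 were lower in Sox2, 1 in the library labelled Oct4 and 1 in Oct4-L80A. With a pseudocount 4 times larger 7 were lower in Klf4, 0 in the library labelled Oct4, and 0 higher in SKO-L80A against SKO. With shared signals counted once 7 were lower in Sox2, 6 in Klf4, 3 in Oct4-L80A, 3 in SKO-L80A, 1 in SKO-L80A+Vc and 4 in SKO-L80A+Ga, and the median of SKO-L80A against SKO was -0.028.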
